A study of Mus musculus with 16 samples.

Results

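Colonic nuclei carrying a neuronal label were set against unlabelled nuclei of the same kind of preparation after activation of the aryl hydrocarbon receptor (AhR). The comparison used 8 of the 16 libraries of the series, chosen by their labels alone: 4 libraries of neuronal nuclei and 4 of non-neuronal nuclei from mice given the AhR agonist 3-methylcholanthrene. The mice were C57BL/6, kept specific pathogen-free, and had received an intravenous AAV9-CaMKII-EGFPKASH vector 5 weeks earlier, which puts EGFP on the envelope of nuclei in which the CaMKII promoter is active. All 16 libraries came from mice carrying this vector. The agonist was given into the peritoneum 14 hours before nuclei were isolated from the peeled longitudinal muscle layer and attached myenteric plexus of the colon, and nuclei were sorted as EGFP-positive (neuronal) or EGFP-negative (non-neuronal). The other 8 libraries, 4 of each population, came from mice given corn oil and served as the reference. The labels give no dose or age and do not say whether libraries stand for separate mice or pools. Every p-value therefore measures the spread between these libraries, which may in part be technical. Whether equally numbered libraries of both populations share a preparation is not stated either, and the reported test takes them as unpaired.

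AhR is a transcription factor that binds aromatic ligands in the cytosol, enters the nucleus, pairs with ARNT and binds DNA elements with a GCGTG core. Its best known targets encode enzymes that oxidise and conjugate foreign compounds, together with its own repressor, AHRR, and it is known in the gut for its part in epithelial, immune and neuronal responses to diet and microbes. Neuronal nuclei should hold transcripts of enteric neurons, while the unlabelled nuclei of this layer can come from smooth muscle, interstitial cells, fibroblasts, endothelium, glia, leukocytes and any mucosa that stayed attached.

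Levels are library-scaled counts (CPM) adjusted by the trimmed mean of M-values (TMM) within the 8 agonist libraries, and are listed in the order of libraries 1 to 4, an order without meaning, and where 2 sets of values follow each other unnamed the neuronal libraries come first. Log2 differences are neuronal over non-neuronal, so negative values mean higher in non-neuronal nuclei. A gene was called when edgeR's quasi-likelihood test gave a Benjamini-Hochberg adjusted p under 0.05 over all 14065 genes tested. Of these, 938 (6.67%) were higher in neuronal nuclei and 980 (6.97%) were higher in non-neuronal nuclei, and the median log2 difference of all genes was -0.15. Scaling by library size alone moved that median to 0.43 and the share of calls that were higher in non-neuronal nuclei from 51.1% to 32.8%.

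The agonist libraries held 2887416 to 4902303 counts, and mitochondrial transcripts took 1.77% to 5.28% of them in neuronal and 42.8%, 33.3%, 21.8% and 10.3% in non-neuronal libraries 1 to 4. The labels held against the markers: all 13 neuronal markers tested were higher in neuronal nuclei, with a summed level of 6341 to 7433 CPM against 111 to 516 CPM. Non-neuronal libraries carried 1614 to 5739 CPM of smooth muscle markers against 219.7 to 638 CPM in neuronal libraries. They also carried 916 to 4747 CPM of goblet cell markers and 451 to 1436 CPM of colonocyte markers, both of the mucosal epithelium, although the labels describe the muscle layer. Neuronal libraries held 5.02 to 28.4 and 1.88 to 49.1 CPM of these. None of the 3 glial markers tested was called. Their median log2 difference was -3.22, and glial markers summed to 35.9 to 54.0 CPM in non-neuronal and 9.92 to 18.7 CPM in neuronal libraries. DESeq2, used as an alternative, called 2 of 4 tested higher in non-neuronal nuclei. In such bulk samples fewer cells of a type and less RNA per cell cannot be told apart.

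The 250 bases upstream of the RefSeq start of 3 genes are shown because they carry the AhR element core beside an unequal level in the sorted populations: Cyp1a1, the classical AhR-induced oxidase; Ahrr, the AhR repressor; and Tgfbr2, the only 1 of 94 genes confined to non-neuronal nuclei with such a window that held the longer motif named below. Sequences are from RefSeq (GRCm38.p6), read 5′ to 3′ along the gene, with each GCGTG in capitals.
Cyp1a1: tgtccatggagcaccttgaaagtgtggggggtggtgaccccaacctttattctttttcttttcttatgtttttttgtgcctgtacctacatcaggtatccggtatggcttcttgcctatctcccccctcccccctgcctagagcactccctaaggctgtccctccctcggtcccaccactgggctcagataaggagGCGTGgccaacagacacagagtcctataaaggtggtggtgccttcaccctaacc
Ahrr: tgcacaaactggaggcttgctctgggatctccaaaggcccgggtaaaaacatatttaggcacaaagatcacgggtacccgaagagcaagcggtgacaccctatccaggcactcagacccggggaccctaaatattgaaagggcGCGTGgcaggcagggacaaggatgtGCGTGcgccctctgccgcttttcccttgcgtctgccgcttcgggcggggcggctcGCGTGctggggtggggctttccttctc
Tgfbr2: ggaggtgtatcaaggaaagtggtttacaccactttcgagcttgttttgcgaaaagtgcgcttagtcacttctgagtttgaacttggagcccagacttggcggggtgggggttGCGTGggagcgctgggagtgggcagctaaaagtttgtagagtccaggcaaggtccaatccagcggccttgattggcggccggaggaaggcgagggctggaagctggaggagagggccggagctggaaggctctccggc
The Cyp1a1 window (chr9:57697363-57697612, plus strand) holds 1 GCGTG, 54 bases before the start. The Ahrr window (chr13:74292332-74292581, minus strand) holds 3, at 107, 82 and 27 bases, the last within the longer motif TNGCGTG. The Tgfbr2 window (chr9:116175364-116175613, minus strand) holds 1, at 138 bases, also within the longer motif. That motif, searched on both strands, was found in 4.76% of all 27025 promoter windows of this length and in 7.73% of the 9378 genes tested that had one. It was found in 9.04% of genes called higher in neuronal nuclei and in 5.37% of genes called higher in non-neuronal nuclei. The core GCGTG, which the longer motif contains, was in 30.9% of all windows and 49.3% of those of genes tested, in 47.0% of the former and 39.8% of the latter, and in 25.5% of windows of genes confined to non-neuronal nuclei. For the core both called sets lie below the share of genes tested, while for the longer motif the neuronal called set lies above it. Of the 71 windows of genes confined to neuronal nuclei, 42.3% held the core and 9.86% the longer motif. A match describes these letters only.

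In the AhR pathway the populations differed in opposite directions for the oxidase and the repressor. Cyp1a1 (chr9:57687928-57703824, GENCODE M21 on GRCm38) stood at 2.22, 5.81, 5.96 and 7.66 CPM in neuronal and 11.1, 8.31, 146 and 156 CPM in non-neuronal libraries. Every non-neuronal library lay above every neuronal library, as for 10.1% of all genes tested, and non-neuronal libraries 3 and 4 stood far above 1 and 2; the log2 difference was -3.89 ± 1.01 (SE; adjusted p = 0.0182). Over the 8 corn oil libraries Cyp1a1 had 1 count in all, against 92 counts in neuronal and 1385 in non-neuronal nuclei after agonist. The call ended without neuronal library 2 (0.0506), non-neuronal library 3 (0.0535) or non-neuronal library 4 (0.0651) and with limma voom (0.0692), the values in brackets being adjusted p.

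Ahrr (chr13:74211118-74292331) was at 47.9, 52.7, 51.2 and 60.2 CPM in neuronal libraries, within a narrow range, and at 9.35, 4.37, 11.9 and 0.657 CPM in non-neuronal libraries. The groups did not overlap, and the log2 difference was 3.00 ± 0.90 (SE; adjusted p = 0.0371). After corn oil Ahrr stood at 8.68, 8.66, 2.76 and 17.1 CPM in neuronal and 20.8, 2.89, 18.1 and 14.3 CPM in non-neuronal nuclei, which overlapped, with a log2 difference of -0.59 (adjusted p = 0.623). edgeR's test of the change in the population difference gave an adjusted p of 0.432, so a change was not called. The agonist call ended without neuronal library 2 (0.0824), neuronal library 3 (0.0790), neuronal library 4 (0.0813), non-neuronal library 1 (0.0506), non-neuronal library 2 (0.0714), non-neuronal library 4 (0.0532) or both libraries over 30% mitochondrial (0.0967).

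The receptor itself, Ahr, had 68.3, 65.9, 134 and 67.1 CPM in neuronal and 18.3, 29.7, 51.2 and 48.6 CPM in non-neuronal libraries. All neuronal values lay higher, but the log2 difference of 1.18 ± 0.59 (SE; adjusted p = 0.228) did not pass. Arnt, its partner, differed by 0.97 ± 0.50 (SE; adjusted p = 0.241) and Tiparp, an AhR-induced ADP-ribosyltransferase, by 0.07 ± 0.53 (SE; adjusted p = 0.961), neither called. Tiparp was at 32.1, 73.8, 97.7 and 109.6 CPM in neuronal and 70.5, 69.5, 71.5 and 87.2 CPM in non-neuronal libraries, which overlapped. Of 9 pathway genes tested, 1 was higher in neuronal nuclei (Ahrr) and 3 were higher in non-neuronal nuclei: Cyp1a1, Ugt1a6a, and Nfe2l2, the regulator of oxidant defence. The Nfe2l2 call ended without neuronal library 2 (0.0824), neuronal library 3 (0.0641), neuronal library 4 (0.0641), non-neuronal library 1 (0.110) or both libraries over 30% mitochondrial (0.120) and with library size scaling (0.142). Without neuronal library 2, 1 of the 3 was called. The median log2 difference of all 9 pathway genes tested was -0.86, and 0.05 with library size scaling. Aldh3a1, Nqo1, Cyp1a2 and Gsta1 were among those that did not pass the filter on low counts. Gsta1, a glutathione transferase, had 0 neuronal counts, and its 869 non-neuronal counts were all in library 1.

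Across 3 classes of genes compiled for metabolism, barrier and immunity, calls fell mostly on the non-neuronal side. Of 207 metabolic genes tested, 62 (29.95%) were higher in non-neuronal and 19 (9.18%) in neuronal nuclei, with a median log2 difference of -1.34. Of 77 barrier genes tested, 44 (57.1%) were higher in non-neuronal nuclei and 0 in neuronal nuclei, with a median of -5.24. Of 142 immune genes tested, 59 (41.5%) were higher in non-neuronal nuclei and 0 in neuronal nuclei, with a median of -3.18. The shares over all genes were 6.97% and 6.67% for the non-neuronal and neuronal side. A member passes the filter on low counts if it is high in 1 population alone. These shares therefore describe tested genes, not all 326, 153 and 264 members in the table. The lists were chosen with earlier results of these data known, so setting their shares against those of all genes is no test of a class. The 0 for immune genes on the neuronal side holds for the listed members only. Il20ra, an interleukin receptor chain with 208 neuronal and 0 non-neuronal counts, was in no list. Leaving the 2 libraries above 30% mitochondrial transcripts out reduced the 62 metabolic calls to 40. A fit that leaves libraries out tests its own set of genes, since the filter then asks for fewer libraries. Its counts, here and below, are therefore not over the same members.

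**Figure D1:**
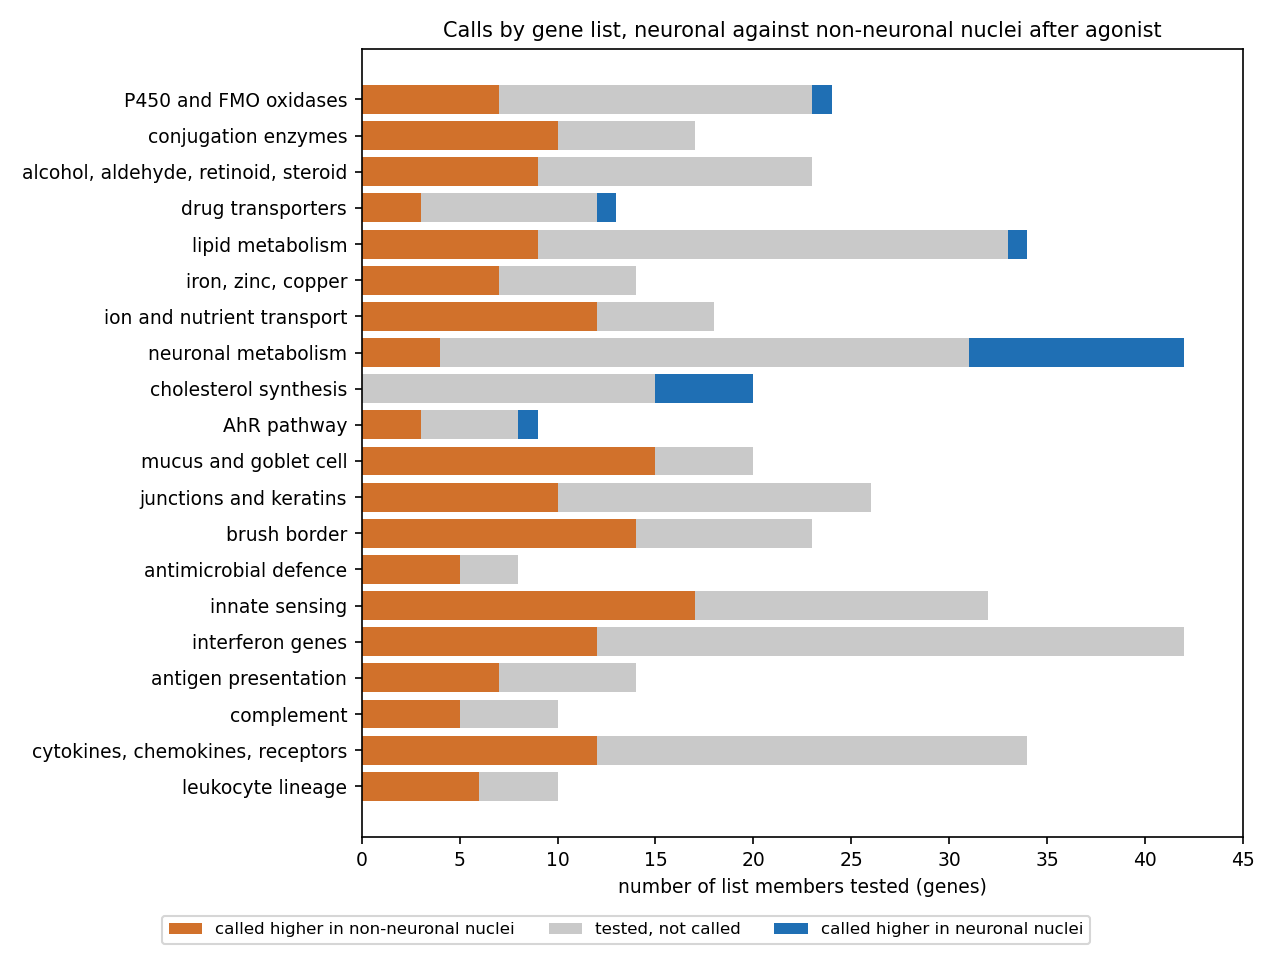
Number of tested members of each of 20 gene lists (horizontal axis, genes) that were called higher in non-neuronal nuclei, not called, or called higher in neuronal nuclei after agonist. Calls higher in neuronal nuclei sit mostly in neuronal metabolism (11 of 42) and cholesterol synthesis (5 of 20), and the barrier and immune lists hold none.

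Enzymes that oxidise foreign compounds were higher in non-neuronal nuclei for 7 of 24 members tested and higher in neuronal nuclei for 1. Cyp3a13 (chr5:137892932-137921619), a broad-substrate cytochrome P450, was at 0, 0.207, 0 and 0 CPM in neuronal and 754, 36.7, 104 and 21.7 CPM in non-neuronal libraries. It had 1 count over the 4 neuronal libraries and 2723 over the 4 non-neuronal ones, a scaled neuronal to non-neuronal ratio of 2.95e-04 (exact 95% interval 7.47e-06 to 0.00165). Such intervals, here and below, cover counting error only, not the spread between libraries. They are given only for genes chosen for their few counts in 1 population. Non-neuronal library 1 stood far above the other three, yet each was well above every neuronal library. Cyp2c55, a P450 of fatty acid oxidation abundant in colon, was at 2.44, 7.05, 2.14 and 3.43 CPM in neuronal and 70.5, 301, 169.7 and 32.2 CPM in non-neuronal libraries, a log2 difference of -5.23 ± 0.83 (SE; adjusted p = 8.22e-04). Fmo5, a flavin monooxygenase, differed by -6.74 ± 1.34 (SE; adjusted p = 0.00389). Cyp4x1, a P450 known from brain, was the neuronal exception, with 657 neuronal and 11 non-neuronal counts. Cyp1b1, another AhR target, was at 1.11, 14.1, 13.8 and 22.2 CPM and 0, 0.437, 42.3 and 64.8 CPM, overlapping, and was not called.

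Conjugating enzymes, which attach glucuronic acid, glutathione or other groups, were higher in non-neuronal nuclei for 10 of 17 tested and for 8 with library size scaling. Ugt1a6a, a glucuronosyltransferase of the AhR pathway, had 0, 0, 0.238 and 1.06 CPM in neuronal and 104, 33.2, 68.7 and 77.8 CPM in non-neuronal libraries, a log2 difference of -7.71 ± 1.20 (SE; adjusted p = 7.49e-04). Ugt1a7c, which shares its last exons with Ugt1a6a, was at 0, 0, 0.715 and 2.91 and 134, 98.9, 56.8 and 36.8 CPM. Of all 75-base windows of their transcripts, 36.9% for Ugt1a6a and 69.1% for Ugt1a7c occur in another gene, so how reads divide between them is uncertain. Ugt2b34 was at 0.887, 1.24, 0 and 0.792 CPM in neuronal and 1430.0, 94.9, 30.1 and 306 CPM in non-neuronal libraries, with library 1 highest, and limma voom did not call it (adjusted p = 0.126).

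Alcohol, aldehyde, retinoid and steroid enzymes were higher in non-neuronal nuclei for 9 of 23 tested, with 0 on the neuronal side. Adh1, an alcohol and retinol dehydrogenase, had 0 neuronal counts and 232, 51.2, 3.27 and 37.9 CPM in non-neuronal libraries (adjusted p = 0.00148). Pooled over libraries it was at least 394-fold higher against a floor of 3 counts over the neuronal group. Such folds, here and below, set the pooled level of the higher population against that floor. They do not bound the difference for each library. Akr1c19, an aldo-keto reductase, was at 0, 0.207, 0 and 0 CPM and 410.4, 64.7, 172 and 22.1 CPM, a scaled ratio of 3.78e-04 (exact 95% interval 9.56e-06 to 0.00211) (adjusted p = 9.49e-05). Hsd3b3, a steroid dehydrogenase, differed by -5.52 ± 0.85 (SE; adjusted p = 7.34e-04). Cbr1 and Aldh3a2, a carbonyl reductase and a fatty aldehyde dehydrogenase, were not called.

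Among 13 drug transporters tested, 3 were higher in non-neuronal nuclei and 1 in neuronal nuclei, and their median of -0.23 became 0.30 with library size scaling. None of the 3 was called without both libraries over 30% mitochondrial. Abcb1a, the efflux pump P-glycoprotein, was higher in non-neuronal nuclei, with a log2 difference of -3.20 ± 0.77 (SE; adjusted p = 0.0122), a call that ended without non-neuronal library 2 (0.0618) or both libraries over 30% mitochondrial (0.0984). Abcc5, an exporter of cyclic nucleotides, was at 342, 299, 259.8 and 346 CPM in neuronal and 119, 55.5, 126 and 36.6 CPM in non-neuronal libraries, with no overlap and a log2 difference of 1.88 ± 0.45 (SE; adjusted p = 0.0111).

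Genes of lipid metabolism were higher in non-neuronal nuclei for 9 of 34 tested, and for 5 without neuronal library 4. Plin4, a lipid droplet coat protein, differed by -4.14 ± 0.93 (SE; adjusted p = 0.00784). Cd36, a fatty acid transporter, had 1 neuronal and 512 non-neuronal counts. Apob, the lipoprotein backbone made by enterocytes, was at 1.77, 4.35, 2.86 and 1.32 CPM in neuronal and 20296, 454, 144 and 26.1 CPM in non-neuronal libraries. Its groups did not overlap, but library 1 stood far above the rest and the gene was not called, with a log2 difference of -10.96 ± 2.82 (SE; adjusted p = 0.0519). It was called without non-neuronal library 1 (adjusted p = 6.23e-04), 2 (0.0467), 3 (0.0492) or 4 (0.0221). The exception on the neuronal side was Acsl6, an acyl-CoA synthetase of brain, at 429.7, 52.0, 47.2 and 48.6 CPM against 3.96, 1.31, 18.0 and 0.219 CPM, a log2 difference of 4.59 ± 1.15 (SE; adjusted p = 0.0147) that ended without neuronal library 1 (0.104) or both libraries over 30% mitochondrial (0.104).

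Metal handling and ion transport were likewise non-neuronal where called. Of 14 iron, zinc and copper genes tested, 7 were higher in non-neuronal nuclei. That count became 4 without non-neuronal library 1, 4 without neuronal library 3 and 3 without both libraries over 30% mitochondrial. Heph, the copper oxidase that releases iron from enterocytes, had 0 neuronal counts and 258, 33.7, 27.6 and 21.5 CPM in non-neuronal libraries, at least 419-fold higher (adjusted p = 7.74e-04). Lcn2, which binds bacterial iron carriers, also had 0 neuronal counts and 35.2, 45.5, 25.0 and 80.6 CPM in non-neuronal libraries, at least 281-fold higher (adjusted p = 6.57e-04). Fth1, the ferritin heavy chain, was at 41.9, 8.91, 12.6 and 39.9 CPM in neuronal and 1442, 59.9, 131 and 158 CPM in non-neuronal libraries, a log2 difference of -4.11 ± 0.97 (SE; adjusted p = 0.0126), which was lost without neuronal library 3 (0.0559), neuronal library 4 (0.0547), non-neuronal library 1 (0.0563) or both libraries over 30% mitochondrial (0.0524). Tfrc, the transferrin receptor, overlapped between the populations, with a log2 difference of -0.64 ± 0.74 (SE; adjusted p = 0.654).

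Of 18 ion and nutrient transport genes tested, 12 were higher in non-neuronal nuclei. Slc26a3, the chloride-bicarbonate exchanger of the colonocyte surface, was at 0.222, 6.01, 0 and 2.64 CPM in neuronal and 232, 329, 189 and 105 CPM in non-neuronal libraries, a log2 difference of -6.56 ± 1.03 (SE; adjusted p = 8.11e-04). Slc26a2, a sulphate transporter, was at 27.1, 46.2, 21.9 and 30.4 and 299, 417, 291 and 173 CPM, with a smaller log2 difference of -3.23 ± 0.46 (SE; adjusted p = 4.05e-04) and groups well apart. The bicarbonate transporter Slc4a4 and the phosphate transporter Slc20a1 overlapped and were not called. The summed colonocyte marker level was 451 to 1436 CPM in non-neuronal and 1.88 to 49.1 CPM in neuronal libraries. The part of that difference in the metabolic calls was not tested.

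**Figure D2:**
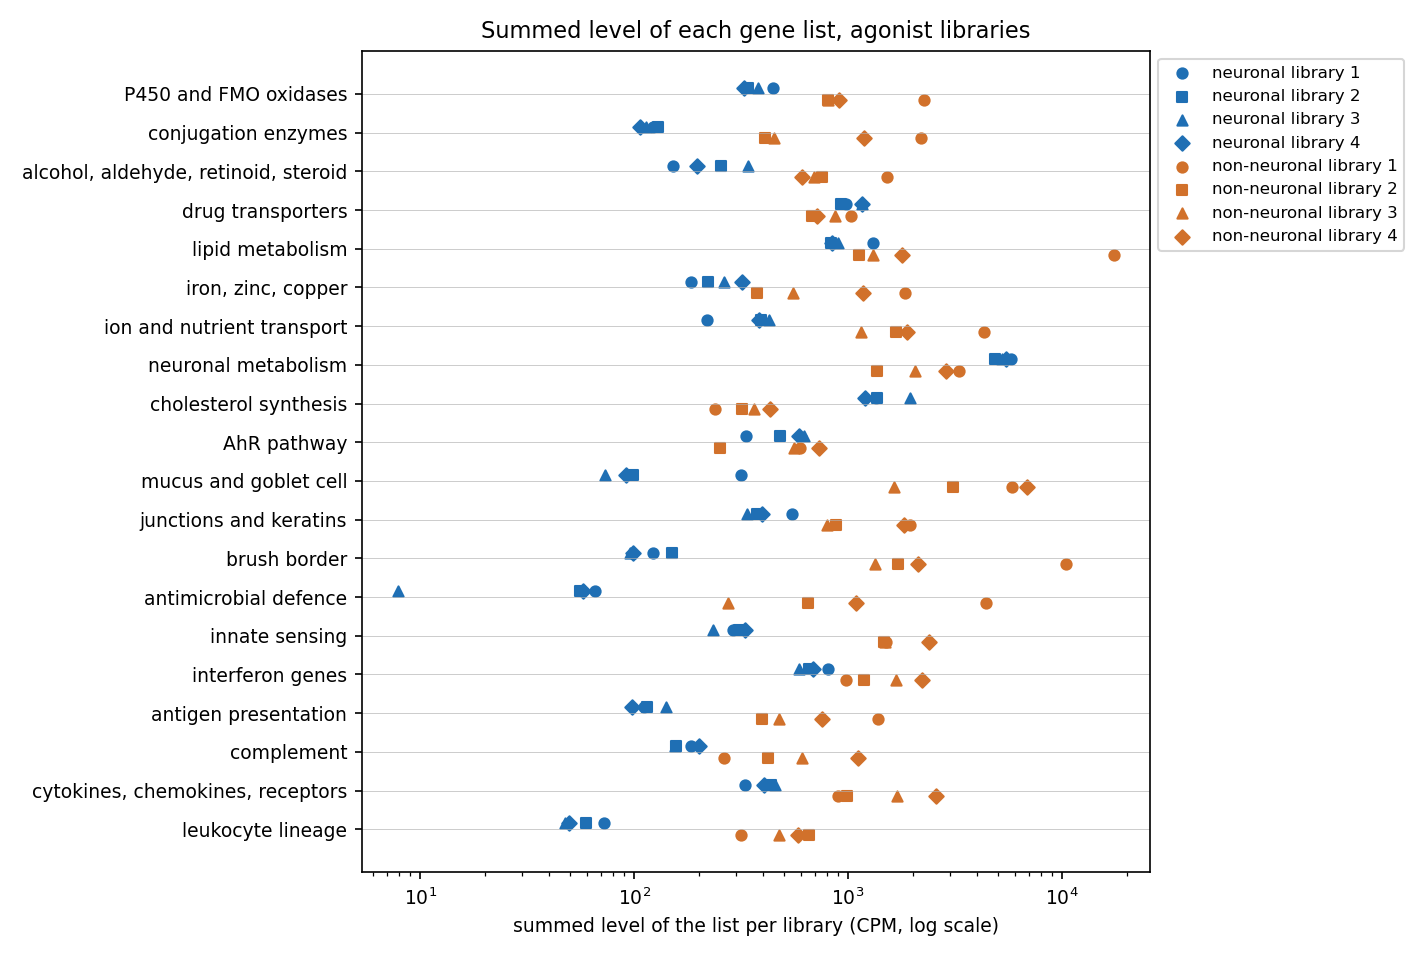
Summed level of each gene list in each agonist library (horizontal axis, CPM by library size, log scale), with marker shape giving the library number. Neuronal and non-neuronal libraries overlap for drug transporters, lipid metabolism and the AhR pathway, and for no other list drawn. Non-neuronal library 1 stands apart for lipid metabolism at 17521 CPM and for the brush border at 10413 CPM. The lipid list includes Apob, which in that library stood at 20296 CPM on the TMM scale.

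Barrier genes were called in 1 direction, with 44 of 77 tested higher in non-neuronal and 0 in neuronal nuclei. Muc2 (chr7:141690340-141754693), the gel-forming mucin of colonic mucus, was at 4.21, 8.91, 3.34 and 8.19 CPM in neuronal and 3374, 2473, 803 and 2919 CPM in non-neuronal libraries, the means being 6.16 ± 2.80 and 2392 ± 1121 CPM (SD, n = 4). Every non-neuronal library held far more than any neuronal one, and the log2 difference was -8.59 ± 0.58 (SE; adjusted p = 2.78e-06). limma voom, which alone among the alternatives did not call Muc2, gave an adjusted p of 0.0759. Of 20 mucus and goblet cell genes tested, 15 were higher in non-neuronal nuclei.

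Other secreted and goblet cell products followed. Fcgbp, a mucus-bound Fc-binding protein, was at 0.443, 0.622, 0.238 and 3.70 CPM and 957, 258, 90.9 and 235 CPM, a log2 difference of -8.27 ± 1.00 (SE; adjusted p = 1.30e-04). Sytl2, a vesicle-docking protein of secretory cells, was at 0.222, 2.70, 4.05 and 2.91 and 215, 234, 123 and 508 CPM, a log2 difference of -6.76 ± 0.79 (SE; adjusted p = 9.99e-05). Zg16, a lectin of the mucus, differed by -8.65 ± 1.32 (SE; adjusted p = 8.56e-04), and Agr2, a disulphide isomerase needed for mucin folding, by -8.17 ± 1.23 (SE; adjusted p = 6.21e-04). The membrane mucins Muc3a and Muc13 were not called; Muc13 stood at 106, 1.04, 0.477 and 8.98 CPM in neuronal libraries, where library 1 was high, and at 1615, 122, 51.9 and 272 CPM in non-neuronal libraries.

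Junction and keratin genes were higher in non-neuronal nuclei for 10 of 26 tested, and for 16 of 31 tested without neuronal library 4. Cdh1, epithelial cadherin, was at 0, 0.622, 0 and 0.264 CPM in neuronal and 193, 128, 13.6 and 97.5 CPM in non-neuronal libraries, a log2 difference of -8.70 ± 1.19 (SE; adjusted p = 3.11e-04). Cdh17, a cadherin of intestinal epithelium, was at 0.222, 0.415, 1.91 and 0 and 640.2, 147, 44.2 and 87.6 CPM, with -8.42 ± 1.14 (SE; adjusted p = 2.88e-04). Dsg2, a desmosomal cadherin, differed by -4.59 ± 0.86 (SE; adjusted p = 0.00268) and Krt20, the keratin of surface colonocytes, by -8.32 ± 1.49 (SE; adjusted p = 0.00192). F11r, a tight junction adhesion molecule, had 2 neuronal and 415 non-neuronal counts. Tjp1, the tight junction scaffold that many cell types make, was at 134, 136, 75.8 and 68.1 CPM and 279, 137, 169 and 188 CPM, a log2 difference of -0.90 ± 0.43 (SE; adjusted p = 0.204) that did not pass. Dsc2, a desmosomal partner, was at 119.5, 53.3, 51.7 and 42.5 and 113, 44.2, 27.8 and 59.1 CPM, which overlapped.

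Brush border genes were higher in non-neuronal nuclei for 14 of 23 tested. Ceacam1, an adhesion molecule of the apical surface, was at 0.665, 18.5, 0 and 2.91 CPM in neuronal and 1341, 1379, 685 and 856 CPM in non-neuronal libraries, with neuronal library 2 above the other three neuronal libraries. Its log2 difference was -7.58 ± 1.37 (SE; adjusted p = 0.00642), the call ended without the filter on low counts (0.0528) or neuronal library 4 (0.0562), and 40.6% of its 75-base windows occur in another gene. Cdhr2 and Cdhr5, the cadherins that link microvilli, differed by -7.98 ± 1.48 (SE; adjusted p = 0.00237) and -7.50 ± 1.36 (SE; adjusted p = 0.00209). Anpep, an aminopeptidase, was at 0.887, 0.415, 0.238 and 0.528 CPM in neuronal and 2169, 108, 8.41 and 7.23 CPM in non-neuronal libraries. Library 1 held most of that level, the log2 difference was -10.02 ± 2.50 (SE; adjusted p = 0.0404), and the call ended without the filter on low counts (0.0820), neuronal library 1 (0.0948), neuronal library 2 (0.128), neuronal library 3 (0.135), neuronal library 4 (0.130) or both libraries over 30% mitochondrial (0.144) and with limma voom (0.339).

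Of 8 antimicrobial genes tested, 5 were higher in non-neuronal nuclei. Duox2, the epithelial hydrogen peroxide source, was at 0.222, 0, 0 and 0 CPM and 38.5, 71.7, 29.2 and 59.4 CPM, a scaled ratio of 0.00120 (exact 95% interval 3.05e-05 to 0.00673) (adjusted p = 3.38e-04). Lyz2, a lysozyme of macrophages, differed by -6.29 ± 1.36 (SE; adjusted p = 0.00636), and Pigr, which carries IgA across the epithelium, by -8.57 ± 1.93 (SE; adjusted p = 0.0248). The last call ended without the filter on low counts (0.0716), neuronal library 2 (0.0726), neuronal library 3 (0.0973) or neuronal library 4 (0.0946) and with limma voom (0.299). Reg3b and Reg4 were not called. Goblet cell markers summed to 916 to 4747 CPM in non-neuronal against 5.02 to 28.4 CPM in neuronal libraries, with Retnlb at 0 neuronal counts, and 6 of 6 tested were called. Their part in the barrier result was not tested.

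Among immune genes, intracellular sensors were the list with the most calls. Of 32 innate sensing genes tested, 17 were higher in non-neuronal nuclei (12 with library size scaling). The NAIP proteins recognise bacterial flagellin and secretion system parts and assemble an inflammasome with NLRC4, which activates caspase-1. Naip6 (chr13:100281121-100317674) was at 0, 2.70, 0.477 and 0.264 CPM in neuronal and 619.7, 408, 233 and 566 CPM in non-neuronal libraries, a log2 difference of -8.96 ± 0.91 (SE; adjusted p = 3.46e-05). Naip5 differed by -7.16 ± 1.04 (SE; adjusted p = 4.79e-04). Naip1 had 0 neuronal counts and 50.4, 132, 41.4 and 67.5 CPM in non-neuronal libraries, at least 385-fold higher (adjusted p = 2.27e-04).

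The partners lay on the same side. Nlrc4 had 3 neuronal and 398 non-neuronal counts, a scaled ratio of 0.00606 (exact 95% interval 0.00124 to 0.0178). Casp1 was at 14.0, 15.1, 7.63 and 6.60 CPM and 227, 233, 71.7 and 75.1 CPM, a log2 difference of -3.80 ± 0.65 (SE; adjusted p = 0.00139). Naip2 had 2 and 894 counts, and Tifa, an adaptor for bacterial sugar sensing, 1 and 835. The Naip genes share sequence: 21.3% of 75-base windows for Naip1, 10.9% for Naip2, 23.8% for Naip5 and 11.97% for Naip6 occur in another gene, so the split among them is uncertain. Pycard, the adaptor of several inflammasomes, was at 26.6, 25.3, 22.6 and 47.3 and 53.6, 62.1, 44.2 and 83.2 CPM, overlapping slightly, and did not pass.

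Interferon-related genes were higher in non-neuronal nuclei for 12 of 42 tested, for 8 with library size scaling and for 19 of 52 tested without neuronal library 4. Gbp4, an interferon-induced GTPase, had 0 neuronal counts and 13.7, 48.6, 81.8 and 139.7 CPM in non-neuronal libraries, at least 472-fold higher (adjusted p = 4.96e-04). Slfn4, an interferon-induced gene of myeloid cells, also had 0 neuronal counts and 724 non-neuronal counts. Ifitm3, which restricts virus entry, differed by -5.43 ± 1.36 (SE; adjusted p = 0.0147). Stat2 and Oasl2 overlapped between populations.

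Antigen presentation gave 7 calls of 14 tested, all higher in non-neuronal nuclei. H2-K1, a classical class I heavy chain, was at 21.7, 25.3, 11.9 and 6.60 CPM in neuronal and 219, 147, 178 and 55.4 CPM in non-neuronal libraries, a log2 difference of -3.19 ± 0.64 (SE; adjusted p = 0.00398). B2m, the class I light chain, was at 0.665, 6.22, 3.81 and 7.13 and 1419.6, 74.4, 44.6 and 111 CPM, with -6.52 ± 1.27 (SE; adjusted p = 0.00560); library 1 was far above the rest, and limma voom did not call it (adjusted p = 0.0548). H2-Aa, a class II chain of antigen-presenting cells, was at 0, 1.24, 0 and 0 and 57.9, 31.1, 63.8 and 66.8 CPM, with -7.26 ± 1.32 (SE; adjusted p = 0.00214). H2-D1, the other classical class I heavy chain, was at 37.7, 6.22, 25.7 and 11.4 and 82.4, 32.4, 29.9 and 46.9 CPM and was not called.

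Complement, cytokine and leukocyte genes gave 5 of 10, 12 of 34 and 6 of 10 calls higher in non-neuronal nuclei. Complement calls became 3 of 13 tested without neuronal library 1, 2 or 3, and 3 of 10 with library size scaling. Leukocyte calls became 11 of 18 tested without neuronal library 1 and 10 of 18 without neuronal library 4. Osmr, the oncostatin M receptor, was at 0.887, 1.87, 0.715 and 8.19 and 127, 256, 394 and 426 CPM, with -6.69 ± 0.83 (SE; adjusted p = 1.44e-04). Ccl21a, a chemokine of lymphatic vessels, was at 0, 0, 0 and 1.58 and 45.7, 83.5, 98.4 and 263 CPM, with -8.26 ± 1.26 (SE; adjusted p = 6.62e-04). Cd55, which shields cells from complement, was at 71.0, 70.9, 67.0 and 110.1 and 146, 115, 172 and 232 CPM and did not pass although the groups did not overlap.

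Tgfbr2, whose upstream sequence is shown above, had 1 neuronal count and 1237 non-neuronal counts, at 10.8, 63.9, 64.7 and 172 CPM in non-neuronal libraries and a scaled ratio of 6.49e-04 (exact 95% interval 1.64e-05 to 0.00363). Tgfbr1, the other chain of the TGF-beta receptor, was detected in every neuronal library, at 3.55, 9.74, 8.58 and 14.8 CPM against 13.3, 152, 65.7 and 92.9 CPM, which overlapped, with -3.14 ± 0.82 (SE; adjusted p = 0.0187). That call ended without neuronal library 2 (0.0557), neuronal library 3 (0.0585) or non-neuronal library 2 (0.0589), and library size scaling did not make it (adjusted p = 0.0641). Ptprc, which encodes the leukocyte antigen CD45, was at 0.222, 0.415, 3.34 and 0.528 CPM in neuronal and 118, 549.8, 43.7 and 81.7 CPM in non-neuronal libraries, where library 2 stood out, with -7.43 ± 1.09 (SE; adjusted p = 4.93e-04). Macrophage markers summed to 101 to 298 CPM in non-neuronal and 6.09 to 20.1 CPM in neuronal libraries, with 3 of 4 tested called and C1qa and Cx3cr1 at 0 neuronal counts. Lymphocyte markers summed to 17.1 to 124 and 0.902 to 4.89 CPM, and none passed the filter on low counts. The part of these cells, or of the epithelium, in the immune calls was not tested.

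**Figure D3:**
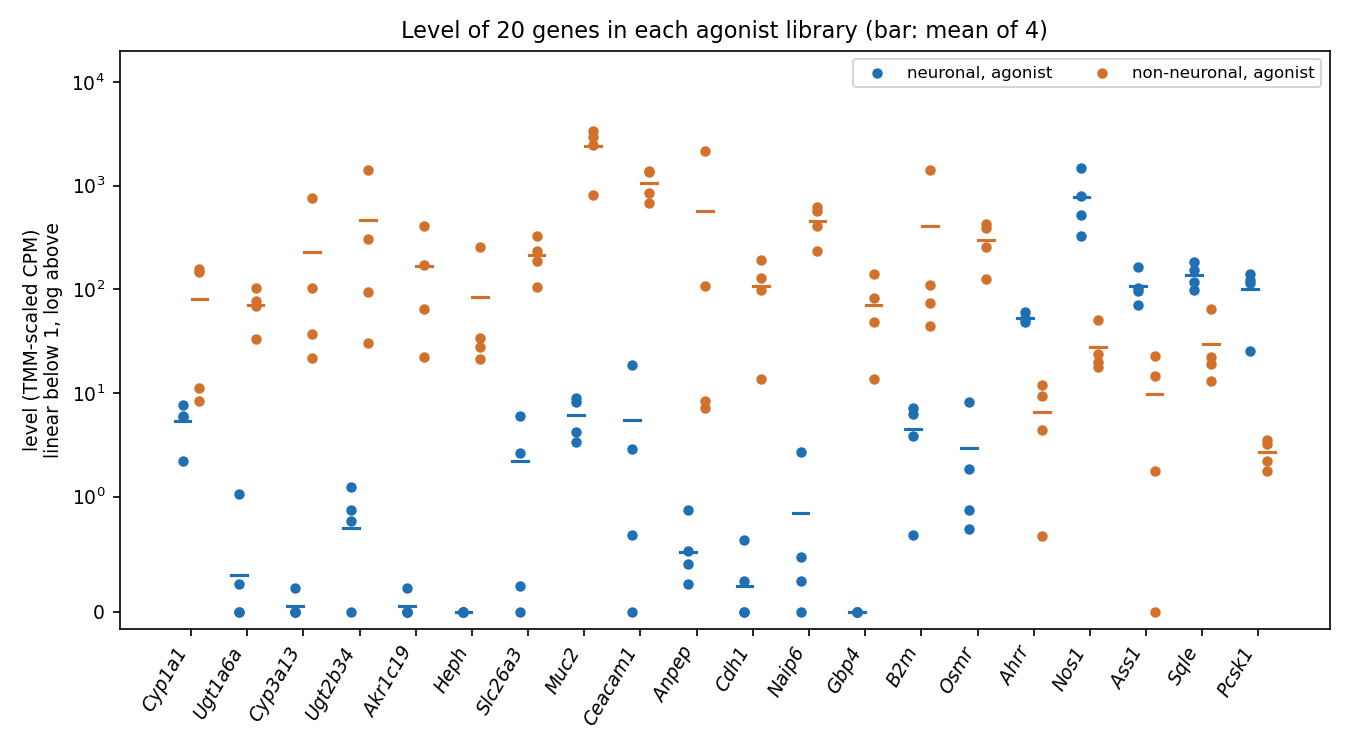
Level of 20 genes in each of the 8 agonist libraries (vertical axis, TMM-scaled CPM, linear below 1 and logarithmic above), with a bar at the mean of 4. Muc2 lies between 803 and 3374 CPM in non-neuronal and at 8.91 CPM or less in neuronal libraries, while Ahrr, Nos1, Ass1, Sqle and Pcsk1 lie higher in neuronal libraries.

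On the neuronal side, calls fell on transmitter and peptide metabolism. Nos1 (chr5:117781032-117958840), the nitric oxide synthase of inhibitory motor neurons and also one of the neuronal markers, was at 1492, 800.3, 517 and 325 CPM in neuronal and 18.0, 50.7, 23.6 and 19.7 CPM in non-neuronal libraries, a log2 difference of 4.81 ± 0.55 (SE; adjusted p = 8.96e-05). Ass1 and Asl, which rebuild the arginine that nitric oxide synthase consumes, were higher too. Ass1 was at 165, 95.8, 70.3 and 104 CPM against 0, 1.75, 22.7 and 14.7 CPM, with 3.45 ± 1.03 (SE; adjusted p = 0.0361), and Asl differed by 2.90 ± 0.89 (SE; adjusted p = 0.0422). The Ass1 call ended without neuronal library 1 (0.0814), neuronal library 2 (0.0619), neuronal library 4 (0.0578), non-neuronal library 2 (0.0703) or non-neuronal library 4 (0.0591), and 46.9% of its 75-base windows occur in another gene; the Asl call ended without neuronal library 1 (0.127), neuronal library 2 (0.0720), neuronal library 3 (0.0524) or non-neuronal library 4 (0.0972).

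Pcsk1, a convertase that cuts neuropeptide precursors, was at 25.5, 116, 124 and 140.0 CPM in neuronal and 3.24, 1.75, 3.51 and 2.19 CPM in non-neuronal libraries, with neuronal library 1 lowest and a log2 difference of 5.22 ± 0.79 (SE; adjusted p = 6.11e-04). Atp2b2, a plasma membrane calcium pump, was at 349, 117, 133 and 125 and 15.1, 1.31, 17.8 and 4.60 CPM, with 4.21 ± 0.77 (SE; adjusted p = 0.00216). Of 42 genes of neuronal metabolism tested, 11 were higher in neuronal and 4 in non-neuronal nuclei. The 4 were Ddc, Ckmt1, B4galnt1 and Ckb, and with library size scaling 14 and 0 were called. Without neuronal library 2, 3 or 4 the counts were 6, 8 and 7 higher and 0 lower each time. Without neuronal library 1 or non-neuronal library 1, 2 and 1 were lower. Atp2b1 and Atp1b1, a second calcium pump and a sodium pump subunit, were not called, and Atp1b1 lay on the non-neuronal side, at -1.97 ± 0.64 (SE; adjusted p = 0.0533); it was called there without non-neuronal library 2 (0.0311) or 3 (0.0130).

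Cholesterol synthesis was the other group higher in neuronal nuclei, with 5 of 20 tested, 0 on the other side and a median log2 difference of 1.48. Without neuronal library 1, 2, 3 or 4 the 5 calls became 3, 2, 1 and 3, and without non-neuronal library 1, 2 or 4 they became 3, 2 and 2. Sqle, squalene epoxidase, was at 184, 99.5, 152 and 118 and 64.7, 13.1, 22.2 and 19.1 CPM, with 2.22 ± 0.60 (SE; adjusted p = 0.0225). Msmo1, which removes sterol methyl groups, was at 79.8, 106, 141 and 91.4 and 9.71, 7.87, 0.467 and 32.4 CPM, with 3.04 ± 0.89 (SE; adjusted p = 0.0327). In both the groups did not overlap, as was the case for 11.5% of all genes tested in this direction. Fdft1 and Lss, squalene and lanosterol synthase, differed by 2.59 and 2.18, and Hmgcs1 and Cyp51 did not pass.

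The cholesterol calls named here were close to the threshold. The Sqle call ended without neuronal library 3 (0.0593), non-neuronal library 3 (0.0511) or non-neuronal library 4 (0.0570), and that of Msmo1 without neuronal library 2 (0.0641), neuronal library 3 (0.0806), neuronal library 4 (0.0504), non-neuronal library 1 (0.0640), non-neuronal library 2 (0.0665) or both libraries over 30% mitochondrial (0.132). The Fdft1 call ended without neuronal library 1 (0.0706), neuronal library 2 (0.0630), neuronal library 4 (0.0572), non-neuronal library 2 (0.0617) or both libraries over 30% mitochondrial (0.0534), and the Lss call without neuronal library 2 (0.0716), neuronal library 3 (0.164), non-neuronal library 1 (0.0726), non-neuronal library 4 (0.0799) or both libraries over 30% mitochondrial (0.105). After corn oil the log2 differences were 1.36 for Sqle, 1.48 for Lss and 0.33 for Fdft1, the last not called. For the whole metabolic class on the neuronal side, the count of 19 became 10 without neuronal library 2, 11 without library 3, 12 without library 4 and 12 without non-neuronal library 2.

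Genes were described as confined to a population when called, with at least 10 counts in at least 3 of its 4 libraries and at most 3 counts summed over the other population. Being called also took passing the filter on low counts, for such genes in all 4 libraries of their own population. The rule chose 162 genes (1.15% of those tested) for neuronal and 144 (1.02%) for non-neuronal nuclei. Being chosen from the comparison itself, they carry no further test. Protein-coding genes were 48.8% of the neuronal and 86.8% of the non-neuronal set, against 81.2% of all genes tested. The neuronal set held 32 genes annotated as awaiting experimental evidence, 20 pseudogenes and 16 antisense genes. The non-neuronal set held 4, 7 and 4 of these, and all 14065 genes tested held 1130, 445 and 399. The counting was not stated to use strand, so antisense genes cannot be told apart from their partners. None of the 162 belonged to a metabolic, barrier or immune list, while 32 of the 144 did. Both counts depend on the choice of lists, which was made with earlier results of these data known.

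The confined metabolic genes in non-neuronal nuclei were Cyp3a13, Akr1c19, Akr1c12, Adh1, Rdh16, Mgst1, Heph, Lcn2 and Cd36, which is 9 of 207 tested. The confined barrier genes were Plac8, Tinag, Tmc5, Ces1f, Ceacam20, Duox2, Lcn2, F11r, Capn9 and Creb3l4, which is 10 of 77. The confined immune genes were Adgrg3, Tgfbr2, Naip1, Naip2, Tifa, Nlrc4, Gbp4, Gbp8, Slfn4, Slfn8, Zbp1, Tnfsf10, Il18r1 and Itgax, which is 14 of 142. Lcn2 stands in a metabolic and a barrier list. Zbp1, a sensor of viral nucleic acid, had 1 neuronal and 624 non-neuronal counts, and Tnfsf10, the death ligand TRAIL, 1 and 461. The floor of 3 counts over the neuronal group equals 0.173 CPM, the level that a count of 0 allows there.

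Outside the lists, the confined non-neuronal genes with the highest levels included Elf4, an ETS transcription factor, with 2 neuronal and 1740 non-neuronal counts. Hepacam2, an adhesion protein of secretory epithelium, was at 0, 0.207, 0 and 0 CPM and 44.2, 97.5, 23.6 and 215 CPM. Fermt1, the kindlin of epithelia, had 3 and 1260 counts, and Aoc1, a diamine oxidase that degrades histamine, 1 and 1054. The confined neuronal genes with the highest levels were led by Ltk, a receptor tyrosine kinase, at 164, 60.1, 8.82 and 16.4 CPM in neuronal and 0, 0, 0.234 and 0.219 CPM in non-neuronal libraries. Unc5a, a netrin receptor of growing axons, had 972 and 3 counts, and Shisa7, a partner of transmitter receptors, 709 and 1. Pcdha7, a clustered protocadherin, was at 74.7, 29.9, 13.8 and 28.8 CPM in neuronal and 0 in non-neuronal libraries, at least 174-fold higher, though 64.2% of its 75-base windows occur in another gene. Il20ra, a chain of the receptors for interleukins of the IL-20 group, was at 6.43, 11.6, 15.7 and 15.1 CPM in neuronal and 0 in non-neuronal libraries, at least 55.7-fold higher.

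The corn oil libraries, which the rule did not use, showed how many of these genes were as low there. Of the 162 neuronal genes, 86 were called higher in neuronal nuclei after corn oil, 58 were not called and 18 were not tested. Only 29 also had at most 3 counts in corn oil non-neuronal nuclei, and their median there was 20 counts. Of the 144 non-neuronal genes, 95 were called in the same direction after corn oil, 6 were not called and 43 were not tested, 29 also had at most 3 counts in corn oil neuronal nuclei, and their median there was 10 counts. Unc5a had 156 counts in corn oil non-neuronal nuclei, and Naip1 32 counts in corn oil neuronal nuclei. At the edge of the rule, 54 neuronal genes had 2 or 3 counts in the other population and 38 further genes missed it with 4 or 5; for non-neuronal genes these were 52 and 53. The counts moved when a library was left out. Such a fit asks for 3 libraries instead of 4 in the filter on low counts, which also changes the genes tested. Without neuronal library 1, 264 genes met the neuronal rule, and without non-neuronal library 1, 2, 3 or 4 it was 321, 341, 323 or 262. The non-neuronal rule was met by 381, 390, 346 and 427 genes without neuronal library 1, 2, 3 or 4, and by 218 without non-neuronal library 3.

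**Figure D4:**
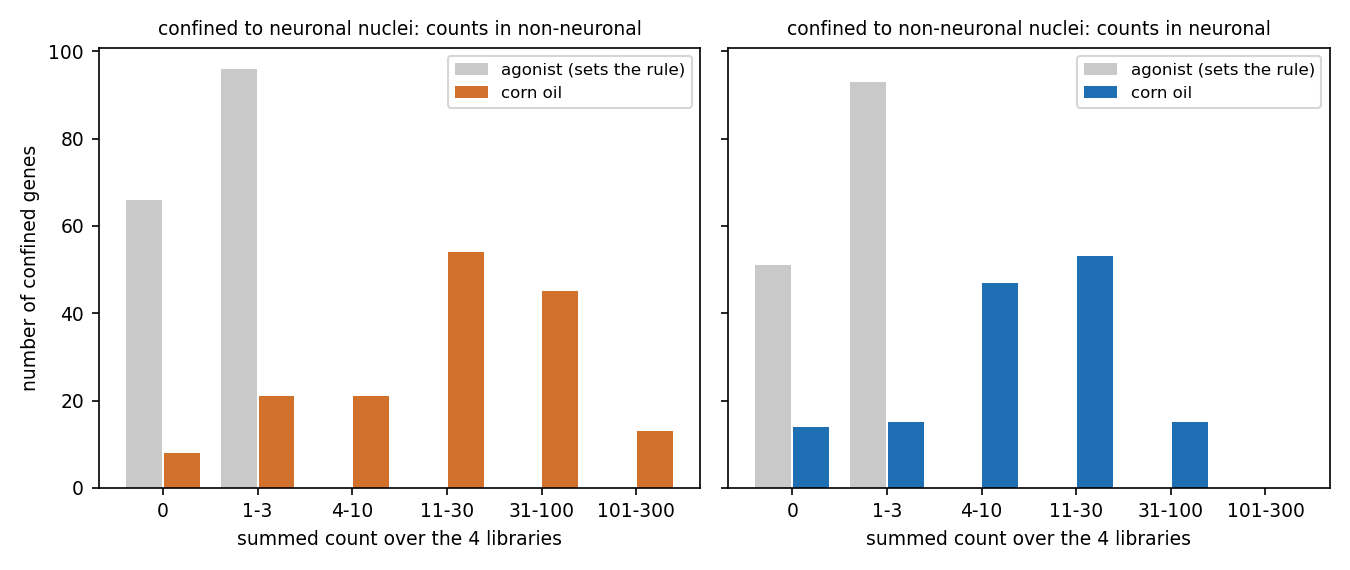
Number of confined genes (vertical axis) by their summed count over the 4 libraries of the other population (horizontal axis, counts), after agonist, where at most 3 counts is the rule, and after corn oil. After corn oil the 162 neuronal and 144 non-neuronal genes have medians of 20 and 10 counts in the other population.

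One library weighed on many levels. Non-neuronal library 1, with 42.8% mitochondrial transcripts, had the highest level among the 4 for 28 of 44 barrier, 30 of 62 metabolic and 18 of 59 immune genes called higher in non-neuronal nuclei, and for 326 of all 980. For brush border genes this was 11 of 14, whereas 6 of 7 smooth muscle markers called were highest in library 3. Without library 1, 44 barrier calls became 42, 62 metabolic calls 49 and 59 immune calls 67. That fit tested its own set of genes, and every immune list had more members tested in it. Neuronal library 1 was likewise the highest for 416 of the 938 genes called on that side.

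After corn oil the same comparison called 3876 of 15285 genes (25.4%), 1811 (11.8%) higher in neuronal and 2065 (13.5%) higher in non-neuronal nuclei. Of the genes tested in both treatments, all 37 barrier genes called after agonist were also called after corn oil in the same direction. This held for 48 of 51 immune genes, for 45 of 53 metabolic genes higher in non-neuronal nuclei and for 17 of 19 higher in neuronal nuclei, with 0 in the opposite direction. Over all genes it held for 770 of 895 and 716 of 918. Muc2 differed by -7.49 after corn oil against -8.59 after agonist, Naip6 by -7.52 against -8.96, and Nos1 by 3.79 against 4.81.

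The 3 immune and 10 metabolic genes called after agonist alone do not show a change, which needs the test of the difference itself. That test, over 18566 genes in all 16 libraries, called 0 genes (0%) with edgeR at an adjusted p under 0.05, the smallest being 0.162. At an unadjusted p under 0.05 it held 1484 genes, of them 34 of 271 metabolic, 19 of 120 barrier and 24 of 195 immune genes. DESeq2 called 152 genes, edgeR without the filter on low counts 110, and edgeR 9 without non-neuronal agonist library 3. The agonist and corn oil differences are therefore given side by side, with no gene named as having changed.

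**Figure D5:**
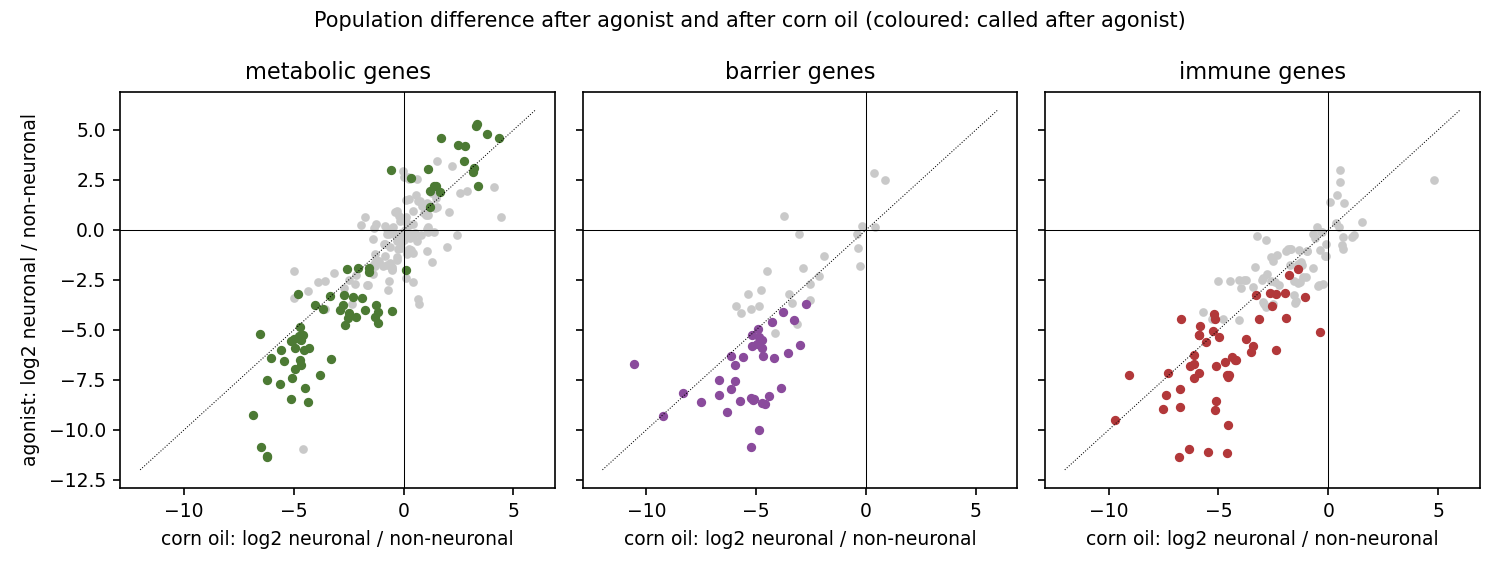
Log2 difference of neuronal over non-neuronal nuclei after agonist (vertical axis) against that after corn oil (horizontal axis) for list members tested in both, 1 point per gene, coloured where called after agonist, with a dotted line of equal difference. The 37 barrier and 51 immune genes called after agonist all lie below 0 on the vertical axis, and Cyp1a1 is not drawn since it was not tested after corn oil.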

How the data were processed

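RNA from sorted colonic nuclei was sequenced as 75-base single-end reads after full-length cDNA amplification, per the labels' protocols. The authors deposited 1 table of RSEM expected counts for 51912 genes in 16 libraries, 4 in each of 4 groups. The submitters' processing notes name RSEM 1.3.0, STAR 2.5.2 and DESeq2 1.10.1, and the build GRCm38, without their roles. How multi-mapping reads were divided and whether strand was used is not given in the sources used here.

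Expected counts were rounded to whole numbers. Genes were filtered with edgeR 4.0.16 in R 4.3.3. The filter asks for about 10 counts in as many libraries as the smaller group holds, 4 in the reported test. Counts were scaled by TMM and tested with the quasi-likelihood test over 4 against 4 libraries, with Benjamini-Hochberg adjustment over all genes tested. The change of the population difference between treatments was tested in 1 fit over 16 libraries. DESeq2 1.42.0 and limma 3.58.1 served as alternatives. A standard error is the log2 difference divided by the square root of the F statistic. Ratios carry exact binomial 95% intervals, which cover counting error only. Agonist and corn oil levels were scaled separately. List sums are CPM by library size. The edgeR procedure was also run on simulated counts with a fixed dispersion and as many raised as lowered genes. That setting is simpler than these libraries, so it does not show how the test behaves at their spread.

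The members and gene lists were chosen with earlier results of these data known. Named were, in each list, up to 5 called members with the highest level in the higher population and up to 2 uncalled members with the highest level, the 12 confined genes with the highest level on each side, the markers and the AhR genes. Asl, Ass1, Cd36, F11r, Il20ra, Naip1, Naip2, Nlrc4, Pcsk1, Rdh16, Tifa, Tnfsf10, Zbp1, Cyp4x1, Ddc, Ckmt1, B4galnt1 and the remaining confined list members were named after their values were seen, as was the GCGTG core. Gene positions are from GENCODE M21. A few genes are not reported here.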

Additional observations from a re-analysis of the deposited data

Results flagged for a closer look

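Of 162 groups of 4 libraries examined, 26 held a library whose gap to the nearest other exceeded Dixon's 95% critical share of the group's range. Chance flags about 1 in 20 where groups are independent and values normally distributed. The values here were unlogged CPM and the list sums share genes with single genes, so that rate need not hold. Non-neuronal agonist library 1 made up 10 of the 26. In that library, Cyp3a13 stood at 754 CPM, Apob at 20296 CPM, Heph at 258 CPM, Fth1 at 1442 CPM, Anpep at 2169 CPM and B2m at 1419.6 CPM, each far above the other three. The summed levels of the lists were also apart there, at 2270.4 CPM for cytochrome P450 and other oxidising enzymes, 1513 CPM for alcohol, aldehyde and retinoid enzymes, 17521 CPM for lipid metabolism and 10413 CPM for the brush border. These sums are not separate from the single genes, since the lipid list includes Apob. This library had the highest mitochondrial share of the 4, 42.8%, whose part in these levels was not tested.

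Other non-neuronal libraries stood apart for Ptprc (549.8 CPM in library 2), Tiparp (87.2 CPM in library 4) and summed innate sensing genes (2390.2 CPM in library 4). Among neuronal libraries, library 1 stood apart for Atp2b2 at 349 CPM, Acsl6 at 429.7 CPM, summed lipid metabolism at 1305 CPM and summed mucus and goblet genes at 316 CPM. Neuronal library 2 stood apart for Ceacam1 at 18.5 CPM and H2-Aa at 1.24 CPM. Neuronal library 3 was high for Ahr at 134 CPM and Ptprc at 3.34 CPM, and low for summed antimicrobial genes at 7.85 CPM. Neuronal library 4 was high for Fcgbp at 3.70 CPM, Osmr at 8.19 CPM, Ccl21a at 1.58 CPM and summed smooth muscle markers at 638 CPM.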

How the results depend on the processing

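Of 167 named genes called, 109 kept their call under every alternative run and 58 lost it in at least 1; none reversed. DESeq2 called 4340 genes after agonist (1670 higher in neuronal nuclei, 2670 lower), edgeR without the filter 3324 (2127 lower), and 1 fit of all 4 groups 4590 (1959 higher, 2631 lower). Library size scaling left 649 lower. After corn oil DESeq2 called 6675 (4269 lower), and edgeR without the filter called 3499 lower. The change between treatments, 0 genes in the reported test, was 152 with DESeq2, 110 without the filter, and 0 to 9 leaving out 1 library. Metabolic genes lower in neuronal nuclei were 102 with DESeq2, 104 without the filter, 40 without libraries over 30% mitochondrial and 114 in 1 fit; metabolic genes higher were 10 to 19 leaving out 1 library. Barrier genes lower were 70 with DESeq2 and 81 in 1 fit. Immune genes lower were 132, 89 without the filter and 122 in 1 fit. Confined neuronal genes were 66 at 0 counts, 253 at up to 10 counts and 128 to 341 leaving out 1 library; non-neuronal ones were 51, 282 and 180 to 427. The replicate block gave 1941 calls after agonist and ended 12 calls of named genes, Pigr (adjusted p = 0.1496) and B2m (0.0785) among them. Same-numbered agonist libraries correlated at 0.014 to 0.091, and only number 4 correlated best with its own number. After corn oil the correlations were 0.0015 to 0.070, with numbers 3 and 4 best with their own. Such correlations between unlike populations cannot exclude pairing. The labels do not state it, so the reported test takes the libraries as unpaired.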
